A study of Mus musculus with 21 samples.

Results

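Serpina3n, Sbno2 and C4b, together with 7 genes of cytokine receptors, glial filaments and glial reactivity (Gfap, Vim, Osmr, Il6st, Il6ra, Cebpd and Cd44), were followed across 4 diet groups in mouse ventral hypothalamus (VH). The 10 genes were chosen by symbol from 21654 in the count table, the first 3 because their counts were higher on a stable high-fat diet (HFD) than on regular chow (RC), and the other 7 for their role, also with earlier results of these data known, which limits the tests of them below. The values that chose Serpina3n, Sbno2 and C4b were those of RC NoDS and HFD NoDS, so for these genes no p is given in any comparison that uses either group, and where a count of calls includes them nothing is read from it. All 10 genes were present and passed the filter of 50 reads on average, which left 12768 genes to test. Osmr averaged 29.6 reads in RC NoDS and passed only through the other groups, where it was higher. The filter thus limits every comparison of Osmr with RC NoDS to a description.

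The study separated body weight from diet and energy balance by means of a diet switch (DS). Male C57BL/6J mice, bought at 12 to 14 weeks of age, were kept on RC (RC NoDS, 5 libraries) or on HFD (HFD NoDS, 5 libraries), or were moved for the last week from RC to HFD (RC → HFD, 6 libraries) or from HFD to RC (HFD → RC, 5 libraries). Every mouse was kept awake for 3 h before tissue was collected in the middle of the light phase, and each library pooled tissue from 2 mice, so differences between mice of a pair were not seen. No group lacked the forced wakefulness.

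Cytokines of the interleukin 6 family act through a shared receptor chain, gp130, encoded by Il6st, which pairs with a ligand-specific chain such as Il6ra or Osmr and activates JAK kinases and the transcription factor STAT3. In astrocytes, STAT3 activity is linked to gliosis, in which intermediate filaments, acute phase proteins and complement components increase. Gliosis is a known response of the hypothalamus of rodents to high-fat feeding.

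Library totals were close to equal, from 16380781 to 16390598 reads, but the libraries differed in complexity. Among genes averaging 5 to 50 reads, the share with a count of 0 ran from 1.12% to 7.22% in RC NoDS, from 2.31% to 22.4% in RC → HFD, from 5.68% to 31.9% in HFD → RC and from 7.70% to 32.9% in HFD NoDS. The share therefore moved with diet, and its part in the results below was not tested beyond a fit that held it as a covariate. HFD NoDS library 20 differed from the rest of its group over all genes tested. Its counts gave a chi-square per degree of freedom of 34.0 to 42.0 against each other HFD NoDS library. The remaining pairs of that group gave 11.5 to 22.6. In tissue of mixed cells, more cells of a type and more RNA per cell cannot be told apart.

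Per kilobase of exon, Serpina3n had the highest mean level over the 21 libraries, at 2021 reads per kilobase, followed by Gfap at 1048, Vim at 725 and Il6st at 536. C4b averaged 206 reads per kilobase. Sbno2 averaged 93.5 and Cebpd 90.5, and Cd44, Il6ra and Osmr were lowest at 36.1, 27.7 and 11.6 reads per kilobase. With a mean of 56.2 reads per library, Osmr stood above only 1.43% of the genes tested, so each of its counts carries a large counting error.

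**Figure D1:**
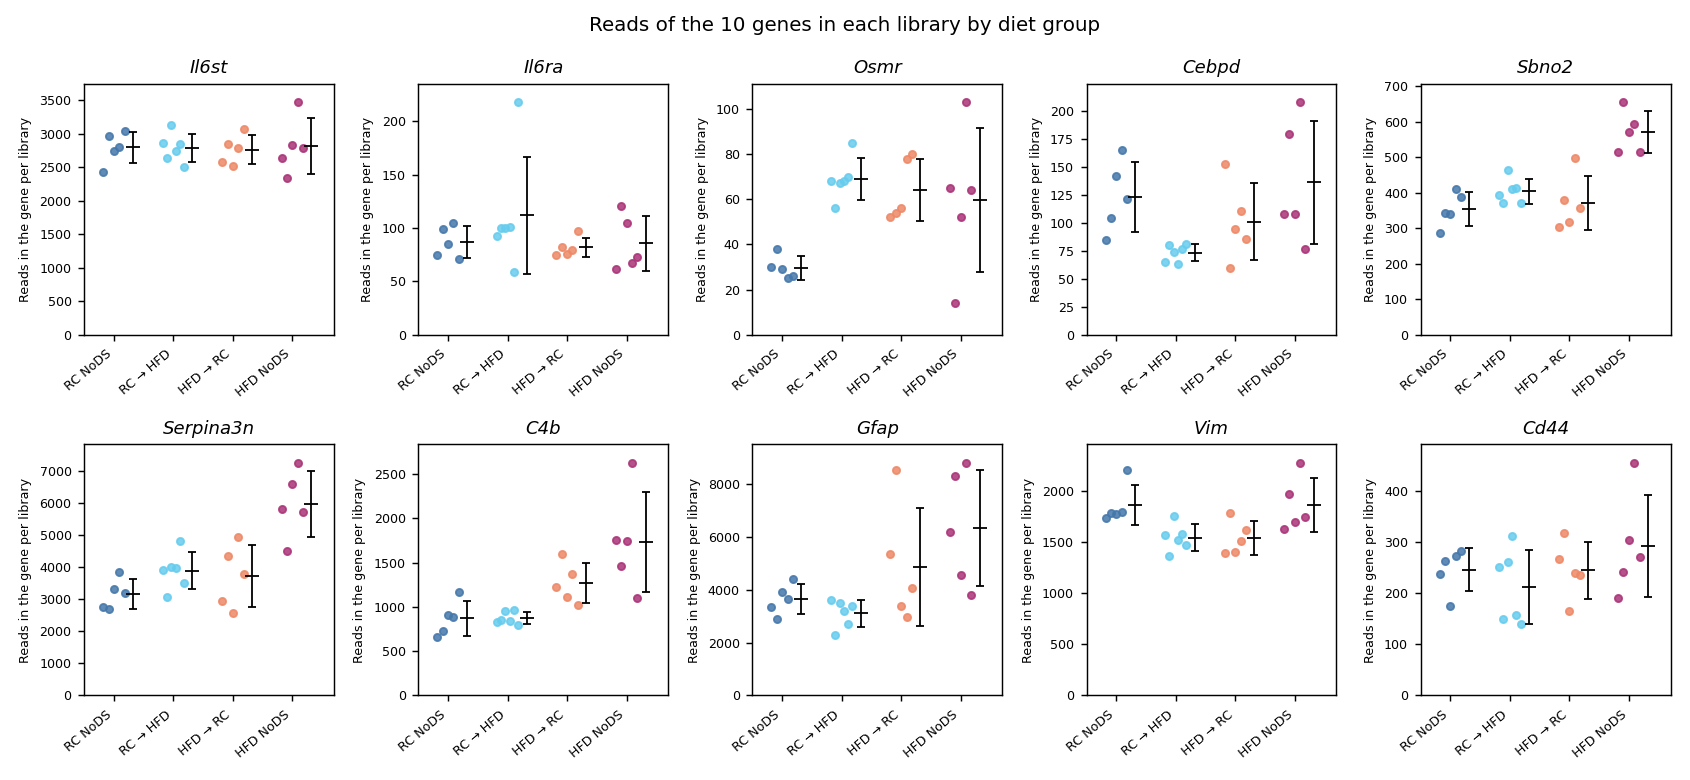
Reads of each gene by diet group, with 1 point per library of pooled tissue, the group mean and SD as bar and whiskers, and every axis from 0. Serpina3n and Sbno2 are highest in HFD NoDS, C4b is higher in HFD → RC (1019 to 1593 reads) than in RC → HFD (796 to 964 reads), and Osmr in RC NoDS (25 to 38 reads) lies below both DS groups (52 to 85 reads), with HFD NoDS library 20 lowest at 14 reads.

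Il6st, the gp130 chain, was nearly level. Mean reads (± SD) were 2799 ± 236 in RC NoDS, 2815 ± 417 in HFD NoDS, 2790 ± 211 in RC → HFD and 2763 ± 218 in HFD → RC. All 4 groups overlapped, and over the 6 comparisons its log2 fold change lay between -0.02 and 0.02 with standard errors of 0.08. Il6ra, the interleukin 6 binding chain, ranged from 59 to 218 reads, with the highest count in RC → HFD library 12. No comparison of Il6ra passed, with edgeR adjusted p values from 0.773 to 0.998.

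Osmr, the ligand-specific chain of the oncostatin M receptor, was counted 30, 38, 29, 25 and 26 times in the RC NoDS libraries. The HFD → RC libraries held 52, 54, 56, 78 and 80 reads, the HFD NoDS libraries 65, 14, 52, 103 and 64 reads, and the RC → HFD libraries from 56 to 85 with a median of 68 reads. Every library of both DS groups was thus above every RC NoDS library, whereas HFD NoDS overlapped RC NoDS through library 20, whose 14 reads were the lowest of all and whose share of low genes at 0 was the highest, 32.9%. Relative to RC NoDS the log2 fold change of Osmr was 1.25 ± 0.33 (SE) in RC → HFD, 1.13 ± 0.34 in HFD → RC and 1.02 ± 0.34 in HFD NoDS. Osmr passed the filter only through groups other than RC NoDS, where it was higher. The adjusted p values and calls of these comparisons are therefore a description, and nothing is read from them. None of the 3 comparisons was called by edgeR (adjusted p = 0.443, 0.247 and 0.640). Without HFD NoDS library 20, which is in neither of them, the first 2 comparisons were called (adjusted p = 0.0975 and 0.0741). RC → HFD was also called when only its 2 groups were fitted (adjusted p = 0.0769), and HFD → RC with DESeq2 (adjusted p = 0.130). Over all alternatives the adjusted p ran from 0.0769 to 1 for RC → HFD and from 0.0741 to 0.637 for HFD → RC. With the share of low genes at 0 as a covariate the log2 fold changes were 1.34, 1.28 and 1.12.

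Cebpd encodes C/EBPδ, a transcription factor of the acute phase response that STAT3 can induce. The RC NoDS libraries held 85, 104, 142, 165 and 121 reads, and the RC → HFD libraries from 63 to 81 with a median of 75.5. Reads numbered 153, 60, 95, 111 and 86 in HFD → RC and 108, 180, 108, 208 and 77 in HFD NoDS. RC → HFD was the lowest group, entirely below RC NoDS and overlapping both other groups. The log2 fold change of RC → HFD relative to RC NoDS was -0.73 ± 0.27, and that of HFD NoDS relative to RC → HFD was 0.89 ± 0.27, neither called (edgeR adjusted p = 0.685 and 0.477).

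Sbno2, a transcriptional co-regulator related to the strawberry notch gene of flies and induced by interleukin 10 and interleukin 6 family cytokines, was counted 286, 342, 340, 410 and 387 times in RC NoDS and 514, 655, 572, 595 and 516 times in HFD NoDS. The HFD → RC libraries held 304, 380, 318, 498 and 358 reads, and the RC → HFD libraries from 372 to 465 with a median of 402. All 5 HFD NoDS libraries were above all 16 others. The remaining 3 groups overlapped each other. As a description, HFD NoDS stood above RC NoDS by 0.71 ± 0.13 (log2, SE), above RC → HFD by 0.49 ± 0.13 and above HFD → RC by 0.61 ± 0.13. In the comparison that shares no library with the choice of the gene, HFD → RC relative to RC → HFD, the log2 fold change was -0.12 ± 0.13 (edgeR adjusted p = 0.9999).

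Serpina3n, a secreted serine protease inhibitor that astrocytes make in response to injury, was counted 2740, 2696, 3326, 3859 and 3206 times in RC NoDS and 5817, 4510, 6582, 7239 and 5701 times in HFD NoDS. Reads numbered 2940, 4347, 2583, 4931 and 3790 in HFD → RC and from 3071 to 4824 with a median of 3950.5 in RC → HFD. HFD NoDS did not overlap RC NoDS, and library 20 alone brought it into the range of the DS groups. Its level in HFD NoDS exceeded that in RC NoDS by 0.93 ± 0.14 (log2, SE), that in RC → HFD by 0.61 ± 0.13 and that in HFD → RC by 0.68 ± 0.14. Both DS groups lay a little above RC NoDS, by 0.32 ± 0.14 for RC → HFD and 0.25 ± 0.14 for HFD → RC, and overlapped it. The DS groups did not differ from each other beyond the spread between libraries (log2 fold change -0.07 ± 0.14, edgeR adjusted p = 0.9999).

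C4b, a complement component cleaved early in the classical pathway, had another order of levels. The RC NoDS libraries held 661, 730, 907, 889 and 1171 reads and the RC → HFD libraries from 796 to 964 with a median of 849.5. Reads numbered 1230, 1593, 1116, 1369 and 1019 in HFD → RC and 1751, 1463, 1745, 2625 and 1100 in HFD NoDS. Every HFD → RC library was above every RC → HFD library, while HFD → RC overlapped HFD NoDS and, through RC NoDS library 6 with 1171 reads, RC NoDS. Between the DS groups, which played no part in the choice of the gene, C4b was 1.45 times as high in HFD → RC (log2 fold change 0.53 ± 0.16). That difference was not called over all genes (edgeR adjusted p = 0.688), and it was called under none of 28 alternatives, where the log2 fold change ran from 0.435 to 0.605 and the adjusted p from 0.212 to 1. As a description, relative to RC NoDS, C4b stood at 0.03 ± 0.16 in RC → HFD, 0.56 ± 0.16 in HFD → RC and 1.01 ± 0.16 in HFD NoDS.

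Gfap, the intermediate filament of astrocytes, was counted 3341, 2891, 3903, 3645 and 4393 times in RC NoDS and from 2282 to 3600 times with a median of 3285 in RC → HFD. Reads numbered 5357, 8518, 3402, 2987 and 4057 in HFD → RC and 6183, 8291, 4570, 8797 and 3807 in HFD NoDS. The libraries of the groups that began on HFD were widely spread, and the only groups that did not overlap were HFD NoDS and RC → HFD. HFD NoDS was 2.03 times as high as RC → HFD (log2 fold change 1.02 ± 0.21), which missed the threshold by edgeR (adjusted p = 0.159). The call depended on the setting: 12 of 28 alternatives passed, with adjusted p values from 0.018 without HFD → RC library 14 to 0.605. Among them were DESeq2 (adjusted p = 0.0992), library size only (0.143), no filter (0.0641), the 2 groups alone (0.0436) and leaving out RC NoDS library 1 (0.148) or 6 (0.149), HFD → RC library 15 (0.0957) or 16 (0.092), or HFD NoDS library 19 (0.134), 21 (0.0842) or 24 (0.0309). Relative to RC NoDS, Gfap in HFD NoDS stood at 0.82 ± 0.22 (log2; edgeR adjusted p = 0.601), and this was called only without HFD → RC library 14 (adjusted p = 0.135) and without HFD NoDS library 24 (adjusted p = 0.142), in a range up to 0.999. HFD → RC relative to RC → HFD gave 0.65 ± 0.21 (edgeR adjusted p = 0.808).

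Vim, a filament protein of astrocytes, tanycytes and vessels, did not follow Gfap across groups. The RC NoDS libraries held 1739, 1786, 1771, 1791 and 2207 reads and the HFD NoDS libraries 1625, 1969, 1700, 2272 and 1747. Reads numbered 1395, 1782, 1401, 1508 and 1614 in HFD → RC and from 1366 to 1754 with a median of 1546 in RC → HFD. Both unswitched groups lay at one level (log2 fold change 0.02 ± 0.09) and both DS groups at a lower one, with overlap. RC → HFD stood at -0.24 ± 0.09 and HFD → RC at -0.25 ± 0.09 relative to RC NoDS, and HFD NoDS at 0.26 ± 0.09 and 0.27 ± 0.09 relative to the same groups, none of them called (edgeR adjusted p = 0.685, 0.462, 0.510 and 0.530). Cd44, a hyaluronan receptor of reactive astrocytes and leukocytes, ranged from 140 to 455 reads with all groups overlapping and no call, the lowest edgeR adjusted p being 0.663.

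The counts of calls were set against all genes. In RC NoDS v HFD NoDS, 3 of the 10 genes were called beside 0.0783% of all genes tested, and 2 of 10 had groups that did not overlap beside 0.893%, but these are the genes that this comparison chose, and nothing is read from the count. The other 7 gave 0 calls there by edgeR, and 0 by DESeq2 or limma. By edgeR 2 of 7 (Gfap and Osmr) had an unadjusted p under 0.05, beside 7.41% of all genes. Osmr passed the filter only through groups other than RC NoDS, so its part of that count is a description. In RC → HFD v HFD → RC, 0 of 10 were called beside 0.00783% of all genes. In that comparison 2 of 10 (C4b and Gfap) had an unadjusted p under 0.05 beside 5.35% of all genes, and C4b alone did not overlap, beside 0.486%. DESeq2 and limma also called 0 of 10.

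In the comparisons that share libraries with RC NoDS v HFD NoDS, counts are given for the other 7 genes. Osmr passed the filter only through groups other than RC NoDS, where it was higher. Where a count against RC NoDS includes Osmr, that part is therefore a description, and nothing is read from it. In RC NoDS v RC → HFD, 0 of 7 were called beside 0.0392% of all genes and 2 of 7 (Osmr and Cebpd) did not overlap beside 1.17%. In RC NoDS v HFD → RC, 0 of 7 were called beside 0.282% and 1 of 7 (Osmr) did not overlap beside 1.32%. In HFD NoDS v RC → HFD, 0 of 7 were called beside 0.0157% and 1 of 7 (Gfap) did not overlap beside 0.744%, and in HFD NoDS v HFD → RC, 0 of 7 were called beside 0.0705% and 0 of 7 did not overlap beside 1.02%. At an unadjusted p under 0.05 by edgeR the counts of the 7 were 3, 2, 4 and 1 in this order, beside 6.51%, 8.10%, 7.49% and 7.93% of all genes. DESeq2 called Osmr in RC NoDS v HFD → RC and Gfap in HFD NoDS v RC → HFD, and limma called 0 of 7 in each.

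Of 8 ligands of the gp130 family listed (Il6, Il11, Lif, Cntf, Osm, Clcf1, Ctf1 and Il27), 0 passed the filter, and the most abundant, Ctf1, averaged 48.7 reads per library. Of 10 further receptors and kinases, 9 were tested and Stat3, the transcription factor downstream of gp130, was called. Jak2, a kinase of the same pathway and next to Stat3 by p, went the other way without a call, from 833.8 ± 93.6 reads in RC NoDS to 607.6 ± 126 in HFD NoDS with overlap. Its log2 fold change in HFD NoDS was -0.44 ± 0.14 relative to RC NoDS, -0.34 ± 0.13 to RC → HFD and -0.31 ± 0.14 to HFD → RC (edgeR adjusted p = 0.640, 0.569 and 0.585). Cntfr, a receptor gene and next by p, went the same way as Stat3 without a call. In HFD NoDS it stood at 0.18 ± 0.09 relative to RC NoDS and 0.14 ± 0.09 to HFD → RC, with overlap (edgeR adjusted p = 0.666 and 0.703). Relative to RC → HFD it stood at 0.23 ± 0.08 without overlap (adjusted p = 0.528). Stat3 was counted 2888, 2776, 2973, 3403 and 3010 times in RC NoDS, 2661, 3131, 2738, 3213 and 3051 times in HFD → RC, 3967, 3636, 3839, 4195 and 3571 times in HFD NoDS, and from 2840 to 3475 with a median of 3150 in RC → HFD. All 5 HFD NoDS libraries lay above all 16 others. Stat3 was higher in HFD NoDS than in RC NoDS by 0.37 ± 0.07 (edgeR adjusted p = 0.0454) and than in HFD → RC by 0.37 ± 0.07 (adjusted p = 0.0896), and stood 0.28 ± 0.07 above RC → HFD without a call (adjusted p = 0.354). The call against RC NoDS held in 22 of 28 alternatives and was lost with the share of low genes at 0 as a covariate (adjusted p = 0.81), with the 2 groups alone (0.175) and without RC NoDS library 1 (0.174) or 2 (0.244) or HFD NoDS library 19 (0.16) or 23 (0.217), while the log2 fold change ran from 0.321 to 0.422 over all alternatives. The call against HFD → RC held in 21 of 28 and was lost with the 2 groups alone (0.436) and without HFD → RC library 13 (0.271), 15 (0.276) or 17 (0.204) or HFD NoDS library 19 (0.181), 21 (0.156) or 23 (0.31), with log2 fold changes from 0.337 to 0.399. Stat3 is overlapped on the opposite strand by Stat5a. The libraries were stranded, but without knowing whether counting used strand, reads of the pair may not be separated. The list's median log2 fold change was 0.06 in RC NoDS v HFD NoDS, against 0.01 over all genes.

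Of 20 listed targets and feedback genes of STAT3, 12 were tested and 0 were called in any comparison by edgeR. Socs3, the feedback inhibitor of gp130 signalling, had the smallest p in RC NoDS v HFD NoDS. Its 5 HFD NoDS libraries held 346, 260, 320, 381 and 280 reads and its RC NoDS libraries 145, 183, 169, 192 and 241. These groups did not overlap, and the log2 fold change was 0.79 ± 0.20 (edgeR adjusted p = 0.4685). Nfil3 stood at 0.44 ± 0.15 and Junb at 0.42 ± 0.16, each with an adjusted p of 0.640. Over the 12 tested genes, however, 6 stood above and 6 below 0 in RC NoDS v HFD NoDS, with a median of 0.02. The log2 fold change was above 0 for all 12 in HFD NoDS v RC → HFD (median 0.21), beside 6336 of all 12768 genes tested (median 0.00), and for 11 of 12 in HFD NoDS v HFD → RC (median 0.16), beside 6216 of 12768. In HFD NoDS v RC → HFD, 9 of 9 tanycyte, 4 of 4 meningeal, 10 of 11 microglial and 6 of 6 oligodendrocyte markers also stood above 0 (medians 0.52, 1.04, 0.19 and 0.39). Of astrocyte, neuronal and endothelial markers, 4 of 12, 1 of 5 and 2 of 7 did. The part of these cells was not tested.

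**Figure D2:**
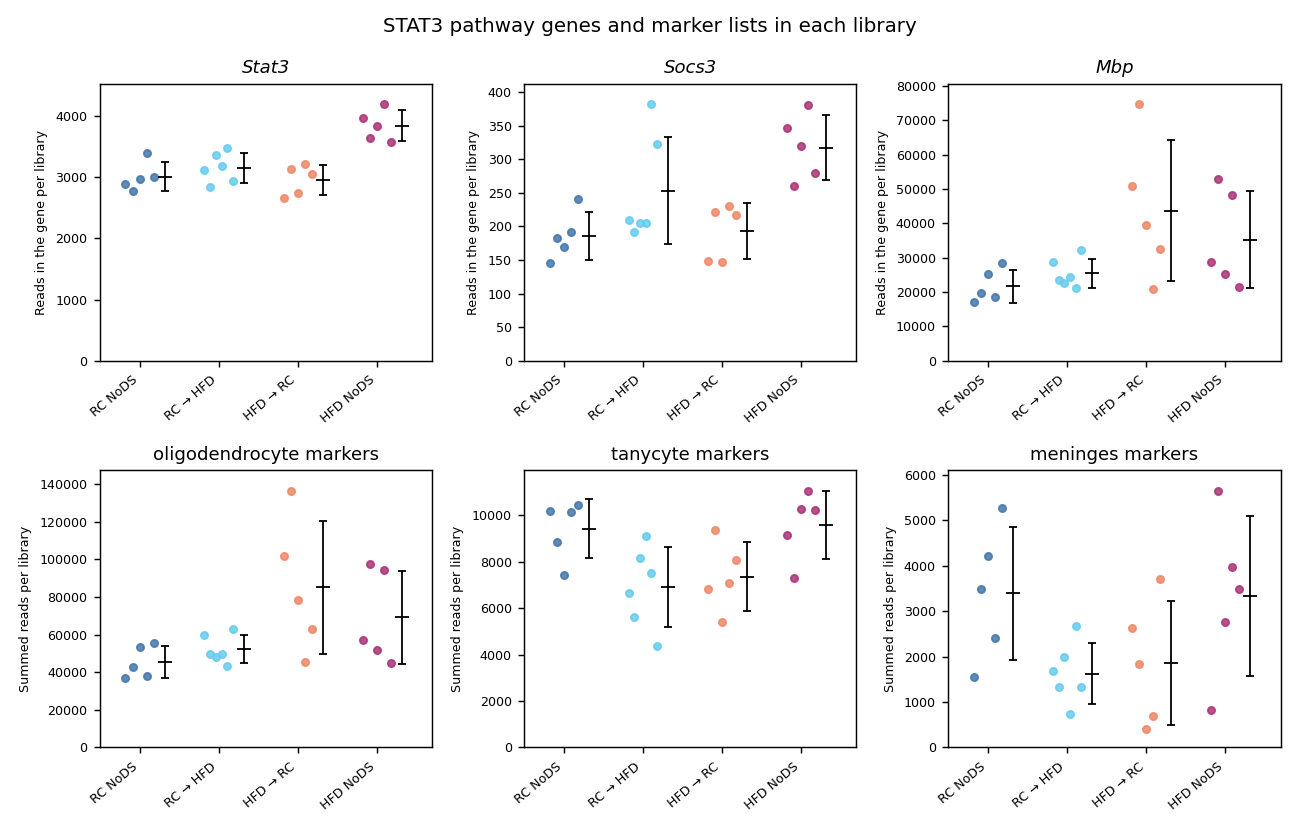
Reads per library of Stat3, Socs3 and Mbp (upper row) and summed reads of 3 marker lists (lower row), by diet group, with points for libraries, bars and whiskers for group means and SD, and axes from 0. Stat3 in HFD NoDS (3571 to 4195 reads) lies above all other libraries (2661 to 3475 reads), and the oligodendrocyte markers are widely spread in HFD → RC (45380 to 136435 reads).

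The name reactive gliosis was checked against lists of reactive astrocyte genes. Of 8 pan-reactive genes 4 were tested, of 12 genes induced by lipopolysaccharide 10, and of 12 induced by ischaemia 5, and 0 were called in any comparison by edgeR. In RC NoDS v HFD NoDS the median log2 fold changes were 0.22, 0.20 and 0.02. The genes of smallest p were S1pr3 (0.24 ± 0.13), Hspb1 (0.46 ± 0.27) and Cp (0.18 ± 0.23) in the first list, H2-D1 (0.35 ± 0.13), Amigo2 (-0.14 ± 0.08) and H2-T23 (0.21 ± 0.16) in the second, and Cd109 (-0.36 ± 0.23), Cd14 (-0.38 ± 0.52) and S100a10 (0.06 ± 0.16) in the third, with edgeR adjusted p from 0.640 up. In HFD NoDS v RC → HFD, 4 of 4, 9 of 10 and 2 of 5 tested genes of the lists stood above 0, with medians of 0.32, 0.31 and -0.06. Timp1, a pan-reactive gene under the filter and so untested, held 3 to 24 reads in RC NoDS and 30 to 105 in HFD NoDS, without overlap. Its DS groups, with 5 to 48 reads in RC → HFD and 2 to 60 in HFD → RC, overlapped both unswitched groups. The other untested pan-reactive genes, Steap4, Cxcl10 and Lcn2, overlapped between RC NoDS and HFD NoDS. By mean, Steap4 and Cxcl10 were lower in HFD NoDS than in RC NoDS, and Lcn2 was higher. A reactive state of astrocytes as such was not tested.

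Of 13 scaffold and scar matrix genes, 12 were tested and 0 were called. S100a6, a calcium-binding protein of astrocytes, averaged 1028 ± 160 reads in RC NoDS, 634 ± 127 in RC → HFD, 881 ± 199 in HFD → RC and 834 ± 126 in HFD NoDS. RC → HFD was the lowest group, at -0.67 ± 0.15 relative to RC NoDS (edgeR adjusted p = 0.1715), and HFD → RC stood 0.47 ± 0.15 above it (adjusted p = 0.772). Anxa2, a membrane-binding annexin, stood 0.55 ± 0.13 higher in HFD NoDS than in RC → HFD (adjusted p = 0.312).

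Of 20 complement genes besides C4b, 13 were tested and 0 were called. The 3 chains of C1q, which starts the classical pathway and is made by microglia, had the smallest p values in RC NoDS v HFD NoDS. C1qa averaged 1053 ± 170 reads in RC NoDS, 948 ± 82.7 in RC → HFD, 1162 ± 195 in HFD → RC and 1278 ± 211 in HFD NoDS. Every HFD NoDS library was above every RC → HFD library for C1qa (0.42 ± 0.12, edgeR adjusted p = 0.435), and between the DS groups C1qa stood at 0.29 ± 0.12 and C1qc at 0.29 ± 0.11 in favour of HFD → RC (adjusted p = 0.899 for both). C4a, the near-identical copy of C4b, held 70.8, 84.0, 59.4 and 57.4 reads on average in RC NoDS, RC → HFD, HFD → RC and HFD NoDS. Reads shared by the pair can be assigned to either gene, so both counts are uncertain to that degree, and how such reads were shared out was not tested.

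Markers of other cells were set beside these genes. Microglial markers, 11 of 11 tested with Csf1r the most abundant and 0 called, summed to 8140, 8427, 8616, 8203 and 9329 reads in RC NoDS, 8363, 11051, 8682, 8581 and 9368 in HFD → RC and 8881, 9841, 9487, 10901 and 8987 in HFD NoDS. In RC → HFD they ranged from 7552 to 8747 with a median of 8315.5. All 11 had a log2 fold change above 0 in HFD NoDS relative to RC NoDS (median 0.22), and 10 of 11 relative to RC → HFD (median 0.19). HFD NoDS was above RC → HFD in every library, as C4b was, and the part of these cells in the level of C4b was not tested.

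Oligodendrocyte markers, 6 of 6 tested with Mbp the most abundant, summed to 37068, 42911, 53351, 37898 and 55474 reads in RC NoDS, 102004, 136435, 78563, 45380 and 63087 in HFD → RC and 57318, 97320, 52067, 94418 and 44761 in HFD NoDS. In RC → HFD they ranged from 43387 to 63257 with a median of 49668.5. HFD → RC library 14 was highest here and for Gfap and C4b within its group, and HFD NoDS libraries 20 and 23 were highest here and for Gfap. In RC NoDS v HFD → RC, Mbp (1.04 ± 0.24) and Mobp (1.19 ± 0.24) were called by edgeR (adjusted p = 0.115 and 0.0614), as was S100b, an astrocyte and oligodendrocyte gene (0.54 ± 0.12, adjusted p = 0.115). With library size only, Mobp was called and Mbp and S100b were not. None of these 3 was called with limma or with the share of low genes at 0 as a covariate, nor without any 1 of RC NoDS libraries 1, 2 and 5 and HFD → RC libraries 13, 14 and 15, with adjusted p values up to 0.557. Over all alternatives the log2 fold change ran from 0.751 to 1.21 for Mbp, from 0.974 to 1.36 for Mobp and from 0.423 to 0.654 for S100b. The part of oligodendrocytes in the levels of C4b and Gfap was not tested.

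Astrocyte markers, 12 of 12 tested with Glul the most abundant, had group medians of 88944 summed reads in RC NoDS, 96601 in RC → HFD, 99087 in HFD → RC and 88807 in HFD NoDS. S100b was the 1 marker called, as above. The order of the groups for these markers was not that of Gfap, whose highest group was HFD NoDS.

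Tanycyte markers, 9 of 9 tested with Col23a1 the most abundant and 0 called, summed to 10198, 8861, 7421, 10155 and 10448 reads in RC NoDS, 6810, 9374, 5404, 7087 and 8054 in HFD → RC and 9135, 7283, 10264, 11043 and 10235 in HFD NoDS. In RC → HFD they ranged from 4358 to 9095 with a median of 7086. All 9 had a log2 fold change below 0 in RC → HFD and in HFD → RC relative to RC NoDS, with medians of -0.52 and -0.27. Tanycytes line the floor of the third ventricle and contain Vim, which was not called in either comparison. The part of tanycytes in the level of Vim was not tested.

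Meningeal markers, 4 of 5 tested with Igf2 the most abundant and 0 called, summed to 1558, 3488, 4207, 2414 and 5272 reads in RC NoDS, 2631, 1830, 415, 700 and 3705 in HFD → RC and 818, 5640, 2748, 3978 and 3486 in HFD NoDS. In RC → HFD they ranged from 726 to 2677 with a median of 1502.5. Like the tanycyte markers, all 4 tested had a log2 fold change below 0 in both DS groups relative to RC NoDS. Medians were -1.03 in RC → HFD and -0.87 in HFD → RC. The part of meningeal cells in the level of Vim was not tested. Blood markers, 3 of 3 tested with Hbb-b1 the most abundant, had their lowest mean in RC → HFD, from 848 to 1654 summed reads, all below the 2511 to 3508 reads of RC NoDS. RC → HFD was also the lowest group for Cebpd, and the part of vessels, membranes and blood in that difference was not tested. Border macrophage markers summed to at most 131 reads in any library, with each of the 5 at 0 in some library and 0 of 5 passing the filter.

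Co-variation within groups was described over 45 pairs of the 10 genes, with group means removed from log2(CPM + 1) in the 21 libraries. Pearson's r was above 0 in 36 of 45 pairs (80.0%) with a median of 0.26, beside 49.9% of all pairs of the 12768 genes tested, with a median of 0.00. None reached an adjusted p under 0.05 by permutation within groups (12 had an unadjusted p under 0.05), and the smallest adjusted p was 0.0936. Gfap and Vim gave the highest r, 0.67 (permutation p = 0.00405, adjusted p = 0.0936; Spearman's rho 0.61, p = 0.0147, adjusted p = 0.0779), with an r above 0 in each of the 4 groups. As this pair did not pass either, no co-variation of the filaments is read from it. Between groups, Gfap was highest in HFD NoDS and Vim was level between HFD NoDS and RC NoDS. Without HFD NoDS library 23 and HFD → RC library 14, the farthest from the median of Gfap, r was 0.47 (permutation p = 0.0573), so the value of r rests in part on these libraries.

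Serpina3n and Sbno2 gave r = 0.60 (permutation p = 0.0152, adjusted p = 0.0965; rho 0.64, p = 0.00755, adjusted p = 0.0653) and r = 0.62 without the 2 farthest libraries. The relation had the opposite sign in HFD NoDS alone, where library 20 had the highest Sbno2 count and the lowest Serpina3n count. That library differed from its group over all genes tested, as given above. Serpina3n and C4b gave r = 0.54 (permutation p = 0.0172, adjusted p = 0.0965; rho 0.63, p = 0.00641, adjusted p = 0.0653), and r = 0.45 without the 2 farthest libraries (permutation p = 0.0775). By r, Vim and Il6st came next after Gfap and Vim, at 0.63 (permutation p = 0.00909, adjusted p = 0.0936; rho 0.64, p = 0.00545, adjusted p = 0.0653), and 0.37 without the 2 farthest libraries (permutation p = 0.140). C4b and Vim gave r = 0.62 (permutation p = 0.0130, adjusted p = 0.0965; rho 0.44, p = 0.0776, adjusted p = 0.225), and r = 0.55 without the 2 farthest. The highest rho was that of Sbno2 and Vim, 0.71 (permutation p = 0.00143, adjusted p = 0.0644), with r = 0.53 (permutation p = 0.0241, adjusted p = 0.109) and r = 0.50 without the 2 farthest. Serpina3n and Il6st, of which Il6st had level group means, gave r = 0.60 (permutation p = 0.00583, adjusted p = 0.0936; rho 0.61, p = 0.00883, adjusted p = 0.0653) and r = 0.53 without the 2 farthest libraries.

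Among all genes tested, those most like Serpina3n over the 21 libraries after removal of group means were Plagl1 (r = 0.88), Stat3 (r = 0.86), Ecel1 (r = 0.84), Gpx3 (r = 0.84) and Cartpt (r = 0.82). Stat3, called between groups, thus also stood second by this measure within groups, from counts of 2661 to 4195. The genes most like Sbno2 were Ubap2 (r = 0.81), Frmd4a (r = 0.77), Loxl3 (r = 0.76), Gpr161 (r = 0.74) and Flnc (r = 0.74). For C4b they were Lrch4 (r = 0.80), Arvcf (r = 0.77), Bcdin3d (r = 0.76), Nosip (r = 0.75) and Morn1 (r = 0.73). These are descriptions, and the highest of so many correlations over libraries that differ in complexity are high by selection.

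**Figure D3:**
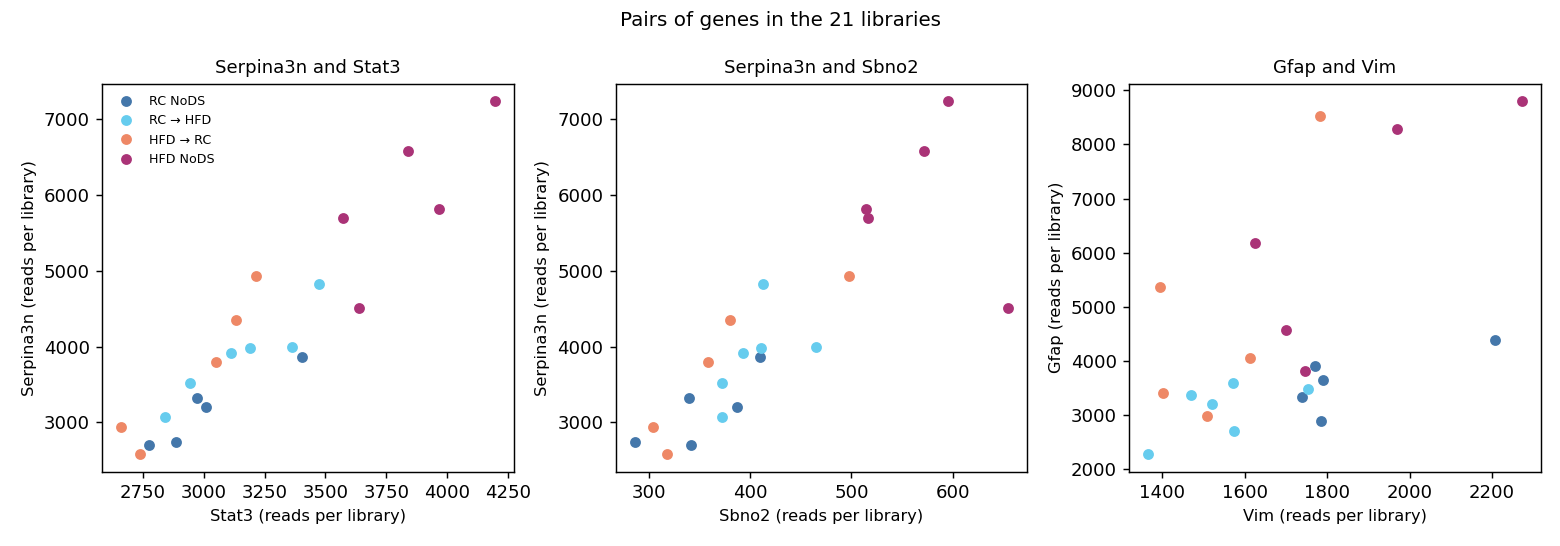
Reads per library of Serpina3n against Stat3, Serpina3n against Sbno2, and Gfap against Vim, each point 1 of 21 libraries coloured by diet group, on axes that do not start at 0. Libraries high for Stat3 are high for Serpina3n in every group, and HFD NoDS library 20 has the highest Sbno2 count (655 reads) but the lowest Serpina3n count of its group (4510 reads).

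Promoter windows of RefSeq on GRCm38.p6, from 250 bases before to 50 after the start, were found for 8 of the 10 genes, and C4b and Cebpd had none. The STAT motif TTCNNNGAA, searched on both strands, was in the windows of Sbno2 and Gfap, 2 of 8, and in 9.55% of all 27025 genes with a window. The C/EBP motif TTGCNNAA was in 0 of 8 and in 12.2% of all genes, and the NF-kB motif GGGANTTTC in 0 of 8 and 1.29%. The matches are shown because Sbno2 and Gfap are, of the 10 genes, those with a match among those that were highest in HFD NoDS, with the motif in capitals. Outside the 10 genes, the window of Socs3, whose mean was also highest in HFD NoDS, held a STAT match (TTCTTAGAA, within chr11:117969502-117969530, minus strand). Sbno2 has 3 annotated starts, of which 2 have a match upstream.
Sbno2, chr10:80102710-80102738, minus strand: gccgcgccccTTCGCAGAAgcggaagtgc
Sbno2, chr10:80101193-80101221, minus strand: ccggctctgcTTCCCGGAAtgcctgtgag
Gfap, chr11:102897184-102897212, minus strand: atgggggtgcTTCCAGGAAgtcaggggca
The match of Gfap spans its annotated start. A match is a description of these letters and not of a bound site, and Serpina3n, highest in HFD NoDS, had no match in its window.

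On NCBIM37 (mm9), the counted genes lie on several chromosomes: Serpina3n (ENSMUSG00000021091) at chr12:105644939-105652539, Sbno2 (ENSMUSG00000035673) at chr10:79520161-79565443 and C4b (ENSMUSG00000073418) at chr17:34865325-34880827. Gfap (ENSMUSG00000020932) lies at chr11:102748650-102762226 and is overlapped on the opposite strand by the noncoding gene Gm17536, with which reads could be mixed if counting ignored strand.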

How the data were processed

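RNA from pooled pairs of ventral hypothalamus punches was sequenced with 1 library per pair. The submitters' processing notes name STAR 2.5.1b, Picard 2.7.1 and the mouse build mm9, and the study's methods name PORT, which resampled reads to a common depth. The deposited values are read counts per gene, made by the authors, with Ensembl IDs, from libraries made with a stranded TruSeq mRNA kit, and whether counting used strand is not given in the sources used here. The counts were analysed as deposited in R 4.3.3 with edgeR 4.0.16 (TMM factors, quasi-likelihood test, 4 group means over 21 libraries), on genes averaging at least 50 reads, and a gene was called at a Benjamini-Hochberg adjusted p under 0.15 over 12768 genes. The fit was tested on simulated data. DESeq2 1.42.0, limma 3.58.1 (voom), library size alone, lower filters, fewer samples and a complexity covariate were alternatives. Genes were named by a fixed rule: the members, list genes called anywhere, the 3 of smallest p per pathway list, the most abundant marker, paralogs and the 5 closest co-varying genes. The members and lists were chosen with earlier results of these data known. Correlations used log2(CPM + 1) with group means removed and 100000 permutations within groups. Gene positions and exonic lengths come from GENCODE on NCBIM37 (mm9), and promoter windows from RefSeq on GRCm38.p6. No 2 libraries held identical counts.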

Additional observations from a re-analysis of the deposited data

Results flagged for a closer look

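Each group's values were searched for a library set apart from its group, where the gap to the nearest other library took up more of the group's range than Dixon's 95% limit allows. Of 100 groups of values looked at (10 genes, 14 marker lists and the share of low genes at 0, each in 4 diet groups), 5 held such a library, and chance alone sets apart about 1 in 20. Vim stood at 2207 reads in RC NoDS library 6, above the other libraries of its group. Il6ra stood at 218 reads in RC → HFD library 12, against a highest value of 101 in the rest of its group. The ependymal cell markers summed to 2783 reads in RC NoDS library 6, above the rest of that group, and to 1956 reads in HFD → RC library 13, below the rest of that group. The choroid plexus markers summed to 1029 reads in RC → HFD library 12, below the rest of that group.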

How the results depend on the processing

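The number of the 10 genes called was 0 between the DS groups under every alternative run, and varied elsewhere. Outside the DS groups these counts include Serpina3n, Sbno2 and C4b, which values of RC NoDS and HFD NoDS chose, so they are no test of these genes and nothing is read from them. Of the other 7, only Gfap and Osmr were called under any alternative, and for Osmr against RC NoDS the limit set by the filter applies. Leaving out 1 library at a time gave 2 to 4 in RC NoDS v HFD NoDS, 0 to 1 in RC NoDS v RC → HFD, 0 to 2 in RC NoDS v HFD → RC, 1 to 3 in HFD NoDS v RC → HFD and 0 to 2 in HFD NoDS v HFD → RC. Fitting only the 2 groups gave 1 (Osmr), 3 and 0 in RC NoDS v RC → HFD, HFD NoDS v RC → HFD and HFD NoDS v HFD → RC. DESeq2 gave 1 in RC NoDS v HFD → RC and 4 in HFD NoDS v RC → HFD (of the other 7 only Gfap), library size only gave 2 there (Gfap likewise), and no filter gave 3 there and 1 in HFD NoDS v HFD → RC, where the Low Filter gave 0. DESeq2 gave Osmr no adjusted p in RC NoDS v RC → HFD.

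Genes called over the whole table numbered 36 in RC NoDS v HFD → RC: 147 with DESeq2, 7 with limma, 10 with library size only, 1 with the complexity covariate and 1 to 205 with 1 library left out. The comparison RC NoDS v HFD NoDS had 10: 17 with DESeq2, 6 with the covariate, 5 to 14 with 1 library left out. Between the DS groups 1 was called: 5 with DESeq2, 2 with the Low Filter, 3 with no filter, 1 to 41 with 1 left out. RC NoDS v RC → HFD had 5: 96 with DESeq2, 24 with the 2 groups alone, 4 to 11 with 1 left out. In HFD NoDS v RC → HFD 2 were called: 32 with DESeq2, 1 with the Low Filter, 5 with no filter, 1 with the covariate, 4 with the 2 groups alone, 1 to 31 with 1 left out. In HFD NoDS v HFD → RC 9 were called: 44 with DESeq2, 4 with the Low Filter, 5 with no filter, 15 with the covariate, 1 with the 2 groups alone, 1 to 13 with 1 left out. Pairs of genes that co-varied numbered 0, and 0 to 2 with 1 library left out (1 without HFD → RC library 13, 2 without HFD NoDS library 20). For the 10 genes, non-overlap was the same for counts scaled by TMM, an alternative chosen after seeing the data. The cause of these differences was not tested.

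No sign change among the tested genes touched a call. In alternatives that changed the sign of a log2 fold change near 0, the values were: Vim in RC NoDS v HFD NoDS -0.0317 (covariate); Il6st in RC NoDS v RC → HFD -0.00517 (library size only), in RC NoDS v HFD → RC -0.0189 (library size only) and -0.00134 (no filter), in HFD NoDS v RC → HFD -0.00275 (limma) and -0.00144 (Low Filter); Cd44 in RC NoDS v HFD → RC -0.00827 (library size only). With 1 library left out the ranges were, in RC NoDS v HFD NoDS: Vim -0.0566 to 0.0918, Il6st -0.0587 to 0.078, Il6ra -0.172 to 0.0913, Cebpd -0.0377 to 0.311. Between the DS groups: Serpina3n -0.186 to 0.0352, Vim -0.0638 to 0.0348, Il6st -0.0525 to 0.0187. RC NoDS v RC → HFD: Il6st -0.0289 to 0.0522. RC NoDS v HFD → RC: Il6st -0.044 to 0.0361, Il6ra -0.131 to 0.0141, Cd44 -0.0998 to 0.123. In HFD NoDS v RC → HFD: Osmr -0.51 to 0.0277, Il6st -0.079 to 0.0606. In HFD NoDS v HFD → RC: Osmr -0.398 to 0.139, Il6st -0.064 to 0.0743, Il6ra -0.105 to 0.159.

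No fit was paired, since no replicate number is shared between groups. Of the 10 genes, Osmr, Il6ra and Cebpd had mean counts near or under 100, where counting error limits what can be seen.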

Other observations

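Other lists gave the following values. Of 16 paralogs of the 10 genes, 6 were tested and 0 were called by edgeR. Sbno1, the other strawberry notch gene of mice, averaged 1712 ± 232 reads in RC NoDS, 1658 ± 177 in RC → HFD, 1703 ± 262 in HFD → RC and 1639 ± 192 in HFD NoDS, and stood at -0.04 ± 0.11 in HFD NoDS relative to RC NoDS. Serpina3i, the most abundant other gene of the Serpina3 cluster counted here, averaged 35.6 reads in HFD NoDS and 22.4 in RC NoDS, against 5970 and 3165 for Serpina3n. Cebpb stood at 0.35 ± 0.25 in HFD NoDS relative to RC NoDS and at 0.68 ± 0.25 relative to HFD → RC (edgeR adjusted p = 0.736 and 0.530).

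Endothelial markers (7 of 7 tested, Flt1 the most abundant), mural cell markers (6 of 6, Vtn), ependymal markers (6 of 7, Foxj1), oligodendrocyte precursor markers (3 of 3, Olig1), neuronal markers (5 of 5, Snap25) and choroid plexus markers (2 of 5, Clic6) had 0 calls in the 6 comparisons. In the lateral hypothalamus list Hcrt, the orexin precursor, was called in RC NoDS v HFD NoDS (log2 fold change 2.71 ± 0.56, edgeR adjusted p = 0.0513), and Pmch was the more abundant gene. Hcrt was counted 93, 1051, 823, 187 and 234 times in HFD NoDS and 28 to 105 times in RC NoDS, so the groups overlapped and libraries 20 and 21 held most of the reads. The paper reports similar levels of Hcrt in all groups, and its punches were meant to leave out the neurons that express this gene. Its evidence includes RT-qPCR of sequenced tissue and of independent tissue, and it compared the 4 groups by analysis of variance. The call here is by edgeR between 2 groups of pooled libraries, at an adjusted p under 0.15, so the 2 results are unlike in test, threshold and samples. The call held in 20 of 28 alternatives and was lost with limma (adjusted p = 0.642), the share of low genes at 0 as a covariate (0.999), the 2 groups alone (0.175) and without RC NoDS library 1 (0.174), 2 (0.244) or 5 (0.258) or HFD NoDS library 20 (0.289) or 21 (0.226), while the log2 fold change ran from 2.17 to 2.97 over all alternatives. The reference genes Actb and Rplp0 stood at 0.04 ± 0.08 and 0.08 ± 0.07 in that comparison.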
